A study of Mus musculus with 12 samples.

Results

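Extracellular ATP and ADP, released by stressed or activated cells, act on purinergic receptors until enzymes on the cell surface break them down. Entpd1 encodes CD39, which removes phosphates from ATP and ADP to give AMP, and Nt5e encodes CD73, which turns AMP into adenosine and can turn UMP into uridine. The P2Y receptors couple to G proteins: P2ry1, P2ry12 and P2ry13 encode receptors of ADP, P2ry2 a receptor of ATP and UTP, P2ry6 a receptor of UDP, and P2ry14 a receptor of UDP-sugars that has been found on blood progenitors. Adora2a and Adora2b encode adenosine receptors that raise cyclic AMP. These 10 genes, 2 enzymes and 8 receptors, were chosen by name for their function, with earlier results of these data known. All 10 were found among the 54532 gene IDs of the count table.

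Gene expression was measured by RNA sequencing in bone marrow haematopoietic stem and progenitor cells (HSPCs) of wild-type mice, in 4 groups of 3 libraries. These were aged HSPCs cultured with uridine, aged HSPCs cultured with vehicle, uncultured aged HSPCs and uncultured young HSPCs. The genotype labels read c57bl/7 to c57bl/9 WT for uridine, c57bl/6 WT for vehicle, c57bl/13 to c57bl/15 WT for uncultured aged and c57bl/10 to c57bl/12 WT for uncultured young cells, a run of numbers that leaves the substrain uncertain. Neither ages, sexes, sort markers, culture time nor uridine dose were stated in the labels. They also do not say that each library had its own animal or culture, and p-values cover only differences between libraries, possibly technical.

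Library totals ran from 16785065 to 19025802 counts, and 16675 genes, including all 10 described here, passed a filter on low counts. Levels are given in CPM, counts scaled to the library total with TMM factors, as mean ± SD of 3 libraries. A gene is said to have risen or fallen where edgeR's quasi-likelihood test gave an adjusted p under 0.05. Markers of stem and progenitor cells were present in every group: the 12 listed genes, among them Kit, Cd34 and Gata2, summed to 1294 to 1348 CPM with uridine, 1553 to 1560 CPM with vehicle, 1003 to 1042 CPM in uncultured aged and 1024 to 1041 CPM in uncultured young cells. The like sums of uncultured aged and young cells do not show like cells: 5 of the 12 genes were higher in aged cells, 4 lower and 3 not called. Kit, Cd34 and Gata2 were lower in aged cells, while Ly6a was at 247 ± 4.8 CPM in aged and 17.8 ± 0.986 CPM in young cells. The uncultured aged and the uridine libraries stood apart. Immunoglobulin genes and Jchain held 21.8% ± 0.171 of the counts of uncultured aged libraries, against 0.543% ± 0.00257 in uncultured young ones. In the uridine libraries, 144 genes with a young level of 10 or more times the vehicle level sat at a median of 0.335 of the way from the vehicle to the young level, and 135 of them (93.8%) lay within 0.1 of that fraction. Whether RNA of young cells was mixed into the uridine libraries was not tested, and the uridine values are to be read with that limit.

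The 10 genes fell into 2 patterns over the 4 groups, with P2ry12 in neither. Entpd1, Nt5e and Adora2a were highest in uncultured aged cells. P2ry1, P2ry2, P2ry6, P2ry13, P2ry14 and Adora2b were lowest there: their mean was highest with vehicle, next with uridine, lower in uncultured young cells and lowest in uncultured aged cells. P2ry12 had 4 to 26 counts per library in all 12 libraries and was too low to judge any but a large change. No gene had under 10 counts in all 6 libraries of a comparison. In uncultured aged cells, however, P2ry6, P2ry13 and Adora2b had at most 9 counts in each library, so that their fold changes against that group are imprecise.

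**Figure D1:**
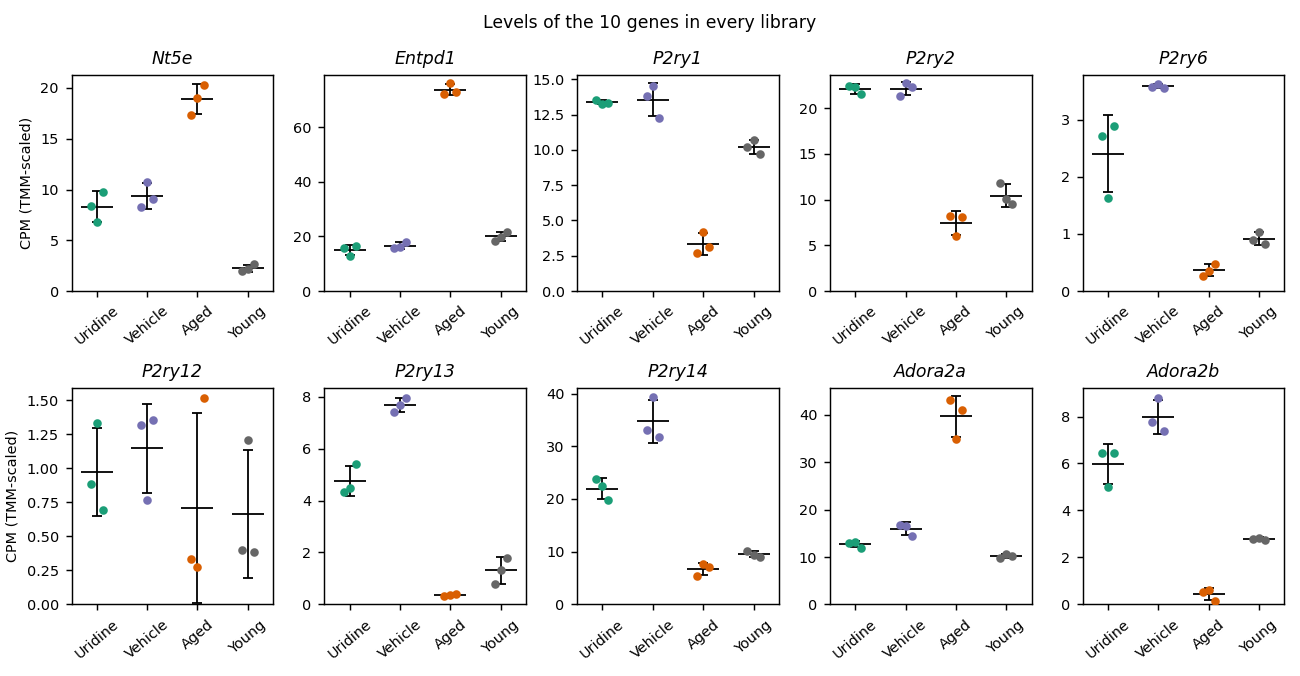
Levels of the 10 genes in CPM (vertical axes, each starting at 0) in the 3 libraries of each group (points), with the mean and SD (bars). Entpd1, Nt5e and Adora2a are highest in uncultured aged cells, and the other receptors except P2ry12 are lowest there.

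The promoters of the genes differed in base composition. RefSeq start sites (GRCm38.p6) were found for 8 of the 10 genes (P2ry6 and Adora2a had none in the table), and the 250 bases before the site nearest the GENCODE gene start were read for each. The windows of Nt5e, Entpd1, P2ry1, P2ry2 and Adora2b held 18 to 22 CG dinucleotides, and those of the neighbouring genes P2ry12, P2ry13 and P2ry14 held 3 to 5. By the GENCODE positions, the windows of Nt5e and P2ry2 lie inside the gene, past its start, and that of P2ry14 lies partly inside. Over 32851 promoter windows of the table the median was 6 and the quartiles were 2 and 16. The windows of 3 receptor genes with the same order of groups are shown, because they set 2 CG-rich promoters (P2ry1 and Adora2b) beside a CG-poor one (P2ry13). That of P2ry1 lies within the noncoding antisense gene Gm37035, and that of P2ry13 within the span of Med12l, a protein-coding gene of the other strand. Overlap of the windows with coding exons was not tested. Each runs 5′ to 3′ and the capitals mark CG.
P2ry1 (chr3:61002535-61002784, plus strand): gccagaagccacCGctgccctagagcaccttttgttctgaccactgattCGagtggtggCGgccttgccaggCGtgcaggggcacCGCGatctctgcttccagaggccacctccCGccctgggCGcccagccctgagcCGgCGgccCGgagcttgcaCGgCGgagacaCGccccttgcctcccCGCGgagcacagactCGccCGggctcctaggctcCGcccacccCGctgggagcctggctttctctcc
Adora2b (chr11:62248734-62248983, plus strand): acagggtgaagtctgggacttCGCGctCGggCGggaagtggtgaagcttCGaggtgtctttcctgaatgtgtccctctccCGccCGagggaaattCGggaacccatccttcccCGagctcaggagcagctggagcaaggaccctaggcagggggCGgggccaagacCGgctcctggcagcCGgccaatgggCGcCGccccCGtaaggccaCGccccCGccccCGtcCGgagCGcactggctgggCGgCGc
P2ry13 (chr3:59210883-59211132, minus strand): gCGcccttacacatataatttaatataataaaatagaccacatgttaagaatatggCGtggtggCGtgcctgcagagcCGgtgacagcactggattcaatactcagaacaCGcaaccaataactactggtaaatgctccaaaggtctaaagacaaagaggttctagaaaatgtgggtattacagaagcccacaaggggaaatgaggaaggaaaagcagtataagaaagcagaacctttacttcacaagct
Genes that moved in opposite directions could both be CG-rich, with 18 CG in the window of Entpd1 and 22 in that of Adora2b. The Entpd1 window reaches into Tctn3, a gene of the other strand whose start lies 133 bases away, so its CG count is not that of Entpd1 alone. The windows were also searched on both strands for letters that 8 kinds of factor or element favour, and the share of all windows with a match was counted. The AP-1 letters TGANTCA were in 6.75% of windows. The GATA letters AGATAA were in 9.99% of windows. The RUNX letters TGTGGT were in 14.0% and the E-box letters CACGTG in 6.02% of windows. The C/EBP letters TTGCNNAA were in 9.56% of windows. The letters TGACGTCA of the cAMP response element were in 1.55%, the PU.1 letters GAGGAAGT in 2.44% and the TATA box letters TATAAA in 12.4% of windows. None of these 3 was in any of the 8 windows described here. P2ry14 held 1 match each to the AP-1 and GATA letters, P2ry13 1 to RUNX, P2ry12 1 each to the E-box and C/EBP, and P2ry2 1 to C/EBP. Nt5e, Entpd1, P2ry1 and Adora2b held none of the 8.

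What differs with age was asked by setting uncultured aged beside uncultured young HSPCs. Both surface enzymes that lead from ATP to adenosine rose in aged cells, as did the adenosine receptor gene Adora2a, while the adenosine receptor gene Adora2b and 5 of 6 P2Y receptor genes fell. In all, 3 members rose, 6 fell and 1 was not called, where 65.3% of all tested genes were called, 33.2% higher and 32.1% lower. The median log2 fold change was -0.50 over the 10 members and 0.02 over all genes. The groups did not overlap for 9 members, nor for 66.9% of all genes, so a call as such does not set the members apart. In bulk RNA, fewer cells of a type and less RNA per cell cannot be told apart.

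Nt5e had 17.4, 19.1 and 20.3 CPM in aged libraries, against 1.999, 2.14 and 2.63 CPM in young ones. Every aged library was far above every young one, with a log2 fold change of 3.07 (SE 0.163, edgeR adjusted p = 1.57e-18), or 8.39-fold. Entpd1 had 72.1, 76.0 and 72.8 CPM in aged libraries, against 18.5, 19.9 and 21.6 CPM in young ones, a 3.68-fold rise (log2 fold change 1.88, SE 0.0804, edgeR adjusted p = 2.37e-21). Adora2a was at 43.2, 34.9 and 41.0 CPM in aged libraries, against 9.74, 10.6 and 10.2 CPM in young ones, without overlap (log2 fold change 1.96, SE 0.0994, edgeR adjusted p = 3.82e-19). Each of these 3 genes was higher in every aged library than in any young one. Markers of plasma cells and of mature B cells were high there too: all 10 of 10 plasma cell genes rose, with sums of 27264 to 27580 CPM in aged and 845 to 855 CPM in young libraries, and all 10 of 10 mature B cell genes rose, with sums of 6120 to 6381 CPM and 724 to 729.7 CPM in aged and young libraries. Of 10 T and NK cell genes 7 rose and 3 were not called, with sums of 286 to 317 CPM in aged and 116 to 119 CPM in young libraries. No gene of these 3 lists was at 0 in either group, and their part in the rise of Nt5e, Entpd1 and Adora2a was not tested.

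Among the ADP receptors, P2ry1 had 2.66, 4.17 and 3.10 CPM in aged libraries, against 10.2, 10.7 and 9.68 CPM in young ones, 3.08-fold lower without overlap (log2 fold change -1.62, SE 0.154, edgeR adjusted p = 1.52e-11). P2ry13 had 5, 5 and 6 counts in aged libraries, against 16, 24 and 33 counts in young ones, with a log2 fold change of -1.81 (95% interval -2.60 to -1.02, edgeR adjusted p = 0.000108). P2ry12 had 5, 4 and 22 counts in aged libraries, against 8, 22 and 7 counts in young ones, so that the highest library of each group had the same count. Its log2 fold change of 0.10 had an interval of -1.04 to 1.25 (edgeR adjusted p = 0.882), and it was -1.08 without aged replicate 3 (adjusted p = 0.164), so no direction can be given. The receptors of uracil nucleotides fell as well. P2ry2 averaged 7.46 ± 1.28 CPM in aged and 10.4 ± 1.25 CPM in young libraries (log2 fold change -0.49, SE 0.126, edgeR adjusted p = 0.00105). P2ry14 averaged 6.69 ± 1.17 CPM in aged and 9.53 ± 0.552 CPM in young libraries (log2 fold change -0.51, SE 0.135, edgeR adjusted p = 0.00121). P2ry6 had 4, 5 and 7 counts in aged libraries, against 18, 19 and 15 counts in young ones, without overlap (log2 fold change -1.32, 95% interval -2.20 to -0.43, edgeR adjusted p = 0.00840). Adora2b showed the largest fall of the 10: it had 8, 9 and 2 counts in aged libraries, against 56, 52 and 50 counts in young ones, a log2 fold change of -2.67 (SE 0.324, edgeR adjusted p = 5.22e-09). Among markers that fell in the same libraries were those of maturing neutrophils (10 of 10, sums of 555 to 595.5 CPM in aged and 5484 to 5696 CPM in young libraries), of mast cells and basophils (6 of 8 tested, 158 to 168 CPM in aged and 996 to 1043 CPM in young) and of megakaryocytes (7 of 9 tested, 119 to 128 CPM in aged and 202 to 204 CPM in young). Erythroid genes (9 of 10, 214 to 224 CPM in aged and 581 to 583 CPM in young) and eosinophil genes (5 of 6, 156 to 168 CPM in aged and 451 to 463 CPM in young) fell too. Of 10 stroma and endothelium genes 6 fell, 2 rose and 2 were not called (121 to 133 CPM in aged and 643 to 669 CPM in young). Monocyte and macrophage genes were mixed: 4 of 11 fell, 2 rose and 5 were not called (778 to 784 CPM in aged and 951 to 963 CPM in young). Dendritic cell genes were mixed too, with 4 of 8 lower and 4 higher (319 to 341 CPM in aged and 255 to 271 CPM in young). Mcpt4 of the mast cell list and Bglap of the stroma list were at 0 in aged libraries, and Gp1bb of the megakaryocyte list at 0 in both groups. The part of these cells in the falls was not tested.

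The rest of the pathway was taken from lists of related genes. Of the other P2Y-type genes, P2ry4 was at 0 counts in all 12 libraries, and P2ry10, whose product responds to lysophospholipids, rose to 81.7 ± 2.12 CPM in aged cells, against 10.2 ± 1.21 CPM in young cells (edgeR adjusted p = 3.09e-26). Its paralog P2ry10b, with which it may share reads, rose too, by 1.43 on the log2 scale. Of the ATP-gated P2X channels 6 of 7 were tested, and 2 rose, 2 fell and 2 were not called (median log2 fold change -0.28). P2rx4 rose by 0.85 on the log2 scale and P2rx7, the channel opened by high ATP, fell by 0.42. P2rx2, with 6 to 30 counts per group, was not tested. Of the other adenosine receptors Adora3 fell by 1.34 and Adora1, with at most 3 counts per group, was too low to test. Of 11 other tested genes on a list of ectonucleotidases and related enzymes, not all of which act on extracellular nucleotides, 4 rose and 7 fell (median -0.22). Cd38, which uses NAD, stood at 66.3 ± 2.15 CPM in aged and 5.03 ± 0.870 CPM in young cells, and Enpp1, which hydrolyses ATP to AMP and pyrophosphate, at 61.7 ± 4.62 CPM in aged and 8.72 ± 1.26 CPM in young cells. Bst1, a relative of Cd38, went the other way, at 0.710 ± 0.299 CPM in aged and 13.7 ± 1.6 CPM in young cells. Of 12 genes of nucleotide release and adenosine handling 7 rose, 4 fell and 1 was not called (median 0.29). Slc28a2, a concentrative nucleoside transporter, rose by 0.83, whereas Slc29a1, an equilibrative one, fell by 1.02. Dpp4, which binds adenosine deaminase at the cell surface in humans, fell by 1.58. Of 15 G proteins and effectors 2 rose, 11 fell and 2 were not called (median -0.24). Plcb2, a phospholipase that acts below G protein-coupled receptors in blood cells, fell by 0.45, and Rgs1, a brake on G protein signals, rose by 0.72.

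**Figure D2:**
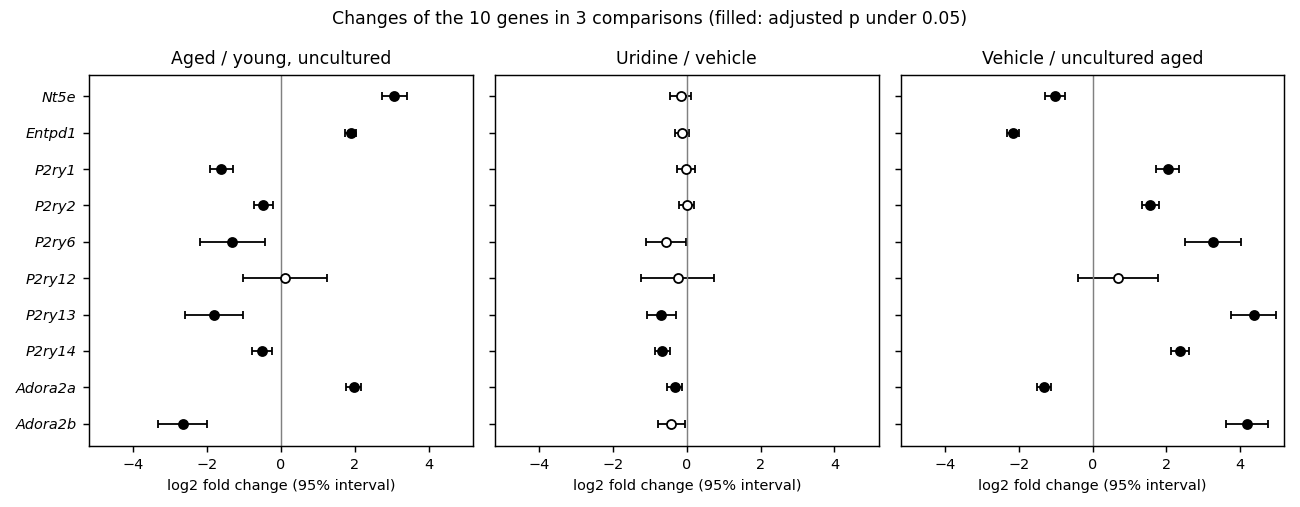
Log2 fold changes (horizontal axis) of the 10 genes with 95% intervals from the edgeR fit in 3 comparisons, each named group over its counterpart, with filled points for an adjusted p under 0.05. Most genes that are lower in uncultured aged than in young cells are higher in vehicle cultures than in uncultured aged cells, and changes with uridine are smaller.

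In vehicle cultures, set beside uncultured aged HSPCs, the 9 members called with age were called in the other direction. The change in culture was larger than that with age for Entpd1 and the 6 receptor genes that rose, and smaller for Nt5e and Adora2a; the differences in size were not tested. It shares the uncultured aged libraries with the comparison by age, so the 2 are not independent. Entpd1, Nt5e and Adora2a fell in culture, and P2ry1, P2ry2, P2ry6, P2ry13, P2ry14 and Adora2b rose. The count was 6 higher, 3 lower and 1 not called, where 70.5% of all tested genes were called, 35.4% higher and 35.1% lower. The groups did not overlap for 9 members and for 71.5% of all genes, and the median log2 fold change was 1.80 over the members and -0.01 over all genes. Culture and any difference in how the libraries were prepared cannot be told apart here.

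P2ry13 had 141, 140 and 141 counts in vehicle libraries, against 5, 5 and 6 counts in uncultured aged ones, a 20.7-fold rise (log2 fold change 4.37, SE 0.301, edgeR adjusted p = 2.17e-15). Adora2b had 148, 160 and 131 counts in vehicle libraries, against 8, 9 and 2 counts in uncultured aged ones, 18.2-fold higher (log2 fold change 4.18, SE 0.282, edgeR adjusted p = 1.19e-15). P2ry6 had 68, 66 and 63 counts in vehicle libraries, against 4, 5 and 7 counts in uncultured aged ones, a rise of 3.27 on the log2 scale (SE 0.369). These 3 genes, all near the floor of detection in uncultured aged cells, gave the largest ratios. P2ry14 reached 33.1, 39.4 and 31.7 CPM with vehicle, against 5.39, 7.65 and 7.03 CPM in uncultured aged libraries (log2 fold change 2.38, SE 0.119, edgeR adjusted p = 1.74e-19). P2ry1 rose 4.09-fold and P2ry2 2.96-fold, to 13.6 ± 1.18 and 22.1 ± 0.718 CPM with vehicle. P2ry12 was at 1.15 ± 0.327 CPM with vehicle and 0.709 ± 0.699 CPM in uncultured aged cells and was not called (log2 fold change 0.69, interval -0.38 to 1.77, edgeR adjusted p = 0.246). Without uncultured aged replicate 3 it was called at 1.88 (adjusted p = 0.00985). In the other direction Entpd1 fell to 15.7, 16.2 and 17.96 CPM with vehicle, against 72.1, 76.0 and 72.8 CPM in uncultured aged ones (log2 fold change -2.15, SE 0.0826, edgeR adjusted p = 5.28e-23). Adora2a fell to 15.9 ± 1.37 CPM with vehicle, against 39.7 ± 4.29 CPM in uncultured aged cells, and Nt5e to 9.37 ± 1.28 CPM with vehicle, against 18.9 ± 1.48 CPM in uncultured aged cells (log2 fold changes -1.32 and -1.01).

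Markers of several cell types changed in the same comparison. All 10 plasma cell and all 10 mature B cell genes fell in vehicle cultures, with sums of 1277 to 1329 CPM and 441 to 443 CPM with vehicle, against 27264 to 27580 CPM and 6120 to 6381 CPM in uncultured aged libraries. All 9 tested megakaryocyte genes rose, with sums of 1529 to 1536 CPM with vehicle and 119 to 128 CPM in uncultured aged libraries. Of 11 monocyte and macrophage genes 8 rose and 3 fell (2333 to 2371 CPM with vehicle and 778 to 784 CPM in uncultured aged libraries), and all 8 tested mast cell and basophil genes rose (391 to 401 CPM with vehicle and 158 to 168 CPM in uncultured aged libraries). Among 10 maturing neutrophil genes 8 fell, 1 rose and 1 was not called. Their sums were 319 to 328 CPM with vehicle and 555 to 595.5 CPM in uncultured aged libraries. All 10 erythroid and all 10 T and NK cell genes fell. Of 6 eosinophil genes 5 fell and 1 rose, and of 10 stroma and endothelium genes 8 fell and 2 rose. The part of these cells in the changes of the receptor genes was not tested. On the pathway lists, 5 of 6 tested P2X genes rose and 1 was not called (median 1.28), led by P2rx4 at 118.0 ± 1.78 CPM with vehicle and 46.3 ± 1.25 CPM in uncultured aged cells. Adora3 rose by 2.94 on the log2 scale, and P2ry10 fell by 4.77. Of the 11 tested genes of ectonucleotidases and related enzymes 3 rose, 7 fell and 1 was not called. Bst1 rose by 5.95 and Enpp4, of the same family as Enpp1, by 2.02, while Cd38 and Enpp1 fell by 3.22 and 2.98. Of the 12 release and handling genes 3 rose, 7 fell and 2 were not called, and of the 15 G proteins and effectors 7 rose, 4 fell and 4 were not called. Rgs18, a brake on G protein signals in platelets, rose by 1.19, and Rgs1 fell by 2.85.

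The comparison of uridine with vehicle asked what the nucleoside changes in cultured aged HSPCs. It shares the vehicle libraries with the comparison above. Changes of the 10 genes were small: P2ry13, P2ry14 and Adora2a fell, none rose, and 7 were not called by edgeR, where 38.1% of all tested genes were called, 20% higher and 18.1% lower. The groups did not overlap for 5 members and for 50% of all genes. DESeq2 also called 3 lower and 0 higher, where it called 6167 of all genes. At an unadjusted p under 0.05 edgeR gave 5 lower and 0 higher members. The share of all genes at that looser threshold is not given here, so this count has no background. The median log2 fold change was -0.29 over the members and 0.00 over all genes.

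P2ry14 was at 23.7, 22.4 and 19.7 CPM with uridine, against 33.1, 39.4 and 31.7 CPM with vehicle, without overlap (log2 fold change -0.66, SE 0.0974, edgeR adjusted p = 8.86e-07). P2ry13 had 88, 88 and 109 counts with uridine, against 141, 140 and 141 counts with vehicle (log2 fold change -0.69, SE 0.191, edgeR adjusted p = 0.00379). Adora2a was at 13.0, 13.1 and 11.9 CPM with uridine, against 16.8, 16.6 and 14.4 CPM with vehicle (log2 fold change -0.33, SE 0.102, edgeR adjusted p = 0.00916). The call of Adora2a was lost without vehicle replicate 1 (adjusted p = 0.0504). Adora2b and P2ry6 did not overlap between the groups either but missed the threshold, at log2 fold changes of -0.42 (edgeR adjusted p = 0.0605) and -0.57 (adjusted p = 0.0887). In a fit of these 6 libraries only, both were called lower (edgeR adjusted p = 0.0178 and 0.0415), which made 5 lower. The share of all genes called in that fit is not given here.

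The enzymes differed little: Entpd1 was at 15.1 ± 1.94 CPM with uridine and 16.6 ± 1.20 CPM with vehicle (log2 fold change -0.14, 95% interval -0.33 to 0.05), and Nt5e at 8.32 ± 1.5 CPM with uridine and 9.37 ± 1.28 CPM with vehicle (-0.17, 95% interval -0.45 to 0.12). P2ry1 and P2ry2, at 13.4 ± 0.151 and 22.1 ± 0.515 CPM with uridine, had log2 fold changes of -0.02 and -0.0018 with intervals of -0.26 to 0.22 and -0.20 to 0.20. P2ry12 was not called (log2 fold change -0.24, interval -1.23 to 0.75).

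The same genes were then set beside the young-like fraction of the uridine libraries. At 0.335 of the way from vehicle to young, P2ry14 would stand at 26.3 CPM, P2ry13 at 5.55 CPM and Adora2a at 14.0 CPM, and with uridine they were measured at 21.96, 4.75 and 12.7 CPM, ratios of 0.836, 0.856 and 0.905. For Adora2b and P2ry6 the ratios were 0.956 and 0.895. P2ry2, Nt5e and P2ry1 lay above that level, at ratios of 1.21, 1.19 and 1.08, and Entpd1 below it, at 0.850. With that fraction of the young profile subtracted from the uridine libraries, P2ry14 remained lower by a smaller margin (log2 fold change -0.32, edgeR adjusted p = 0.0494). P2ry13 (-0.27, adjusted p = 0.451) and Adora2a (-0.21, adjusted p = 0.216) were then not called, Entpd1 was called lower (-0.41, adjusted p = 0.0194) and P2ry2 higher (0.32, adjusted p = 0.0437). None of the 3 genes that fell against vehicle also fell against uncultured young cells: P2ry13, P2ry14 and Adora2a were higher with uridine than in young cells, by 1.87, 1.20 and 0.32 on the log2 scale.

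**Figure D3:**
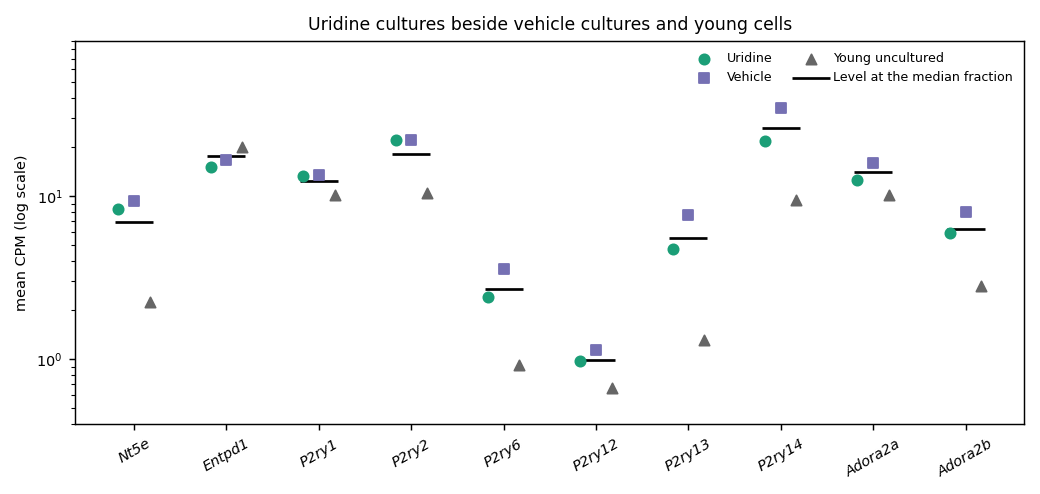
Mean CPM (logarithmic vertical axis) of each gene with uridine, with vehicle and in uncultured young cells, with a bar at 0.335 of the way from vehicle to young. P2ry14, P2ry13 and Adora2a with uridine lie between vehicle and young and below the bar, and P2ry1 and P2ry2 lie at the vehicle level.

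Among markers that moved between uridine and vehicle were those of megakaryocytes, all 9 tested lower (1022 to 1030 CPM with uridine and 1529 to 1536 CPM with vehicle), of monocytes and macrophages, 8 of 11 lower, 1 higher and 2 not called (1693 to 1719 CPM with uridine and 2333 to 2371 CPM with vehicle), and of erythroid cells, all 10 higher (197 to 199.7 CPM with uridine and 5.196 to 5.68 CPM with vehicle, with Slc4a1 at 0 counts with vehicle). All 10 maturing neutrophil genes were called, 9 higher and Mmp8 lower, with sums of 2061 to 2130 CPM with uridine and 319 to 328 CPM with vehicle. For each of these lists the uridine sum lay between vehicle and uncultured young cells. Young sums were 202 to 204 CPM for megakaryocytes, 951 to 963 CPM for monocytes and macrophages, 581 to 583 CPM for erythroid cells and 5484 to 5696 CPM for maturing neutrophils. Whether the young-like fraction gives these differences was not tested. The part of these cells in the falls of P2ry13, P2ry14 and Adora2a was not tested either. Of the pathway lists, 2 of 6 P2X genes fell and 4 were not called. P2rx4 was at 76.0 ± 6.46 CPM with uridine and 118.0 ± 1.78 CPM with vehicle (log2 fold change -0.63, edgeR adjusted p = 2.41e-12), and P2rx1, an ATP channel of platelets, fell by 0.34. P2ry10 rose by 1.20 and P2ry10b was not called. Of the 11 genes of ectonucleotidases and related enzymes 3 rose, 2 fell and 6 were not called. Alpl, tissue-nonspecific alkaline phosphatase, which can strip phosphates down to adenosine, was at 5.43 ± 0.675 CPM with uridine and 0.260 ± 0.200 CPM with vehicle, beside 15.9 ± 1.07 CPM in uncultured young cells. Of 12 release and handling genes 5 rose, 1 fell and 6 were not called, with Dpp4 up by 1.71 and Pnp, which splits purine nucleosides, down by 0.30. Of 15 G proteins and effectors 6 rose, 2 fell and 7 were not called, with Rgs2, a brake on Gq signals, up by 1.25. Rgs2 was at 124 ± 1.82 CPM with uridine, 52.2 ± 2.08 CPM with vehicle and 266 ± 2.35 CPM in uncultured young cells. Dpp4 was at 34.9 ± 4.31, 10.7 ± 0.939 and 81.3 ± 3.48 CPM in the same order. The part of the young-like fraction in these rises was not tested. Adora3 was not called (-0.58, edgeR adjusted p = 0.183).

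The order of the 4 groups was tested through all 6 pairs in the same fit. For Nt5e, uncultured aged cells came first, then vehicle and uridine, which were not told apart, then uncultured young cells. For Entpd1, uncultured aged cells were followed by young cells, then by vehicle and uridine. Its step of vehicle below young was small (log2 fold change -0.27, edgeR adjusted p = 0.00959) and was not called without vehicle replicate 1 (adjusted p = 0.0561) or young replicate 3 (adjusted p = 0.0678). For Adora2a all neighbours differed, in the order uncultured aged, vehicle, uridine, young, but the step between uridine and young (0.32, edgeR adjusted p = 0.0142) was not called without young replicate 1 (adjusted p = 0.0577). For P2ry13 and P2ry14 all neighbours differed, in the order vehicle, uridine, young, uncultured aged. For P2ry1, P2ry2, P2ry6 and Adora2b vehicle and uridine were not told apart, and both exceeded young cells, which exceeded uncultured aged cells. For P2ry12 no pair was called with all libraries, but uridine against uncultured aged was called without aged replicate 3 (log2 fold change 1.64, adjusted p = 0.0263), and vehicle against young without young replicate 2 (1.54, adjusted p = 0.0298). Against young cells, 8 members were higher and 1 lower both with uridine and with vehicle, where 49.4% of all genes were called with uridine, 26.2% higher and 23.3% lower, and 65.9% with vehicle, 33.3% higher and 32.5% lower. The groups did not overlap for 9 members in either case, and for 57.2% of all genes with uridine and 70.2% with vehicle. Uridine against uncultured aged cells gave 6 higher and 3 lower members, where 67.9% of all genes were called, 35.8% higher and 32.1% lower, and 9 members that did not overlap, where 69.3% of all genes did not.

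Levels can be compared between genes only per length, here as CPM per kb of the union of GENCODE M21 exons. In uncultured aged cells Entpd1 (13.2 ± 0.376 CPM per kb) and Adora2a (13.0 ± 1.40 CPM per kb) led, followed by Nt5e (2.20 ± 0.172) and P2ry2 (1.90 ± 0.325). With vehicle P2ry2 led at 5.63 ± 0.183 CPM per kb, followed by Adora2a (5.2 ± 0.446) and Adora2b (4.33 ± 0.389), and P2ry1, P2ry14, P2ry13 and Entpd1 lay close together at 2.98 to 3.16 CPM per kb. With uridine P2ry2 was again first, at 5.62 ± 0.131 CPM per kb, and Adora2a second, at 4.13 ± 0.207. In uncultured young cells Entpd1 (3.58 ± 0.279 CPM per kb) and Adora2a (3.32 ± 0.143) were followed by P2ry2 (2.66 ± 0.317) and P2ry1 (2.37 ± 0.116). These values depend on the annotated length, which for P2ry14 is 11059 bases and for Adora2b 1845 bases.

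P2ry12, P2ry13 and P2ry14 lie close together on the minus strand of chromosome 3 (GRCm38: P2ry14 at 59113855 to 59153618, P2ry13 at 59207892 to 59210882, P2ry12 at 59216272 to 59262871), all within Med12l, a gene of the plus strand. Exons of Med12l overlap those of P2ry12 by 9 bases and those of P2ry13 and P2ry14 by 0 bases. Med12l, which encodes a Mediator subunit, was at 11.8 ± 3.28 CPM in uncultured aged and 16.7 ± 1.29 CPM in young cells, and at 33.5 ± 0.463 CPM with uridine and 34.3 ± 0.423 CPM with vehicle. It fell with age by 0.51 and rose in vehicle cultures by 1.55 on the log2 scale, but unlike P2ry13 and P2ry14 it was not called with uridine (-0.03, edgeR adjusted p = 0.805); the difference between these responses was not tested. Gpr171, a receptor gene 12034 bases beyond P2ry14 on the same strand, was called in the same directions as P2ry14: it fell with age by 0.95, rose in vehicle cultures by 1.62 and fell with uridine by 0.38. The use of strand in counting is not stated, and reads from introns of Med12l and from the receptor genes could mix. The noncoding Gm37035, antisense to the start of P2ry1 with 992 bases of shared exon, had at most 8 counts per group. P2ry2 and P2ry6 are neighbours as well, on the minus strand of chromosome 7 (100996568 to 101012866 and 100937630 to 100974649), 21919 bases apart. The start of Entpd1 lies 133 bases from that of Tctn3, a gene of the other strand. The other positions are Nt5e on chromosome 9 (88327197 to 88372092), Entpd1 on chromosome 19 (40612366 to 40741602), Adora2a on chromosome 10 (75316877 to 75334784), Adora2b on chromosome 11 (62248984 to 62266453) and P2ry1 on chromosome 3 (61002795 to 61008982).

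**Figure D4:**
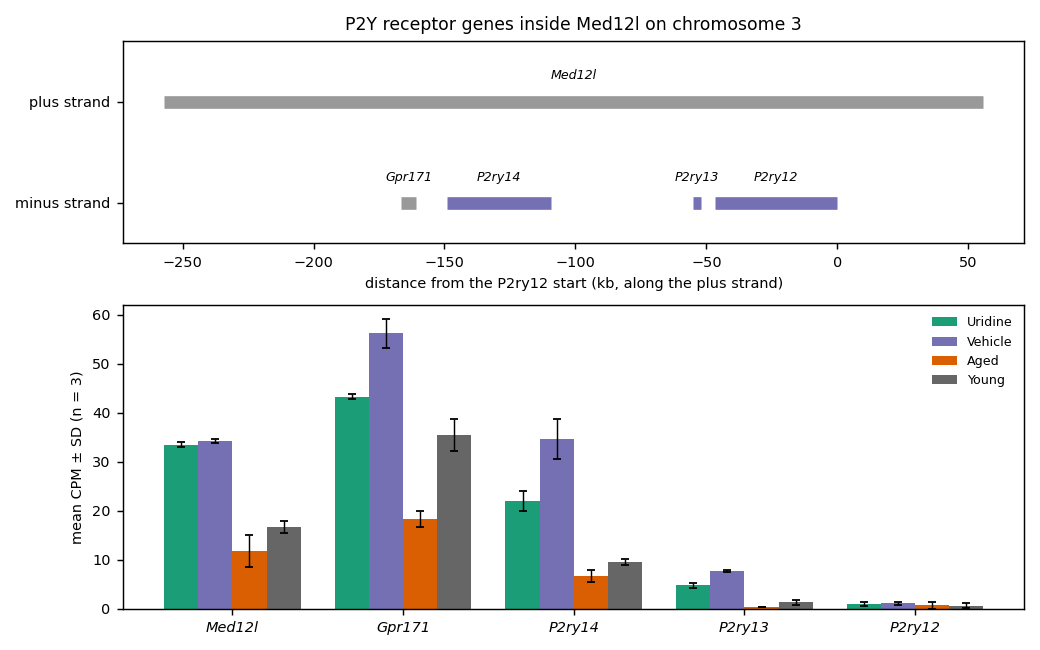
Upper panel: positions of Gpr171, P2ry14, P2ry13, P2ry12 and Med12l, in kb from the P2ry12 start. Lower panel: mean CPM ± SD (n = 3) of the genes with uridine, with vehicle and in uncultured aged and young cells. The means of Gpr171, P2ry14, P2ry13 and Med12l have the same order of groups, highest with vehicle and lowest in uncultured aged cells. For Med12l, vehicle and uridine were not told apart.

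Genes whose pattern was most like that of each member were sought among 12864 protein-coding genes, by the root mean square difference of centred log2 CPM over the 12 libraries. The closest match of all was that of Entpd1 with Rnase6, at 0.0865, followed by Adora2a with Pqlc3 at 0.105. P2ry1 was closest to Trpm2 (0.139), P2ry14 to Lst1 (0.143) and P2ry2 to Asap2 (0.150). Less close were P2ry6 with Cd300a (0.231), Adora2b with Sirpb1a (0.236), P2ry13 with Plekhg1 (0.256) and Nt5e with Ggt7 (0.263), and P2ry12 had no closer gene than Dsel (0.394). No member was among the 3 closest genes of another. The 12 libraries form 4 groups, so that any gene with the same 4 levels will match.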

How the data were processed

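Paired-end reads of poly-A RNA were sequenced, per the labels' protocols. For the 12 libraries, the submitters' processing notes name the aligner HISAT2 2.0.5 and the build mm10. The authors deposited raw read counts per gene, and no source used here states how reads were assigned to genes, with which annotation, or whether by strand. Groups came from the sample titles. Symbols, positions and exonic lengths came from GENCODE M21, which matched 54495 of 54532 IDs. The 37 others, with at most 0.00589% of a library's counts, stayed in the tests. Acp3 of the enzyme list was not matched by symbol.

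Genes were kept by filterByExpr, TMM factors were computed, and 1 mean per group was estimated from the 12 libraries together in edgeR 4.0.16 in R 4.3.3 (quasi-likelihood F-test, Benjamini-Hochberg adjustment over 16675 genes, threshold 0.05, 8 residual and 26.47 prior degrees of freedom). SE is the log2 fold change over the square root of F. Every pair of groups was tested. The 12 pairs of libraries within groups differed by more than counting noise (chi-square per degree of freedom 2.27 to 3.94). The common coefficient of variation beyond counting noise in the edgeR fit was 0.0438, and the labels do not say that libraries came from separate animals. The analysis was tested on simulated data.

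Members and gene lists were chosen with earlier results of these data known. Named genes were all members, up to 4 called genes per pathway list or the 2 most abundant, any purinergic receptor, neighbours within 100 kb, and the 3 genes most like each member, of which the first is given. Mmp8, a listed marker, was named after its values were seen. Alternatives were DESeq2 1.42.0, other scaling and filters, fits of 6 libraries, a replicate block, omission of 424 immunoglobulin genes (Jchain included), subtraction of the young-like fraction, a call also against young cells, and omission of each library. The young-like fraction used genes without immunoglobulins of at least 5 CPM in young libraries, with a floor of 0.05 CPM.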

Additional observations from a re-analysis of the deposited data

How the results depend on the processing

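Aged against young cells gave 3 higher and 6 lower members and vehicle against uncultured aged cells 6 higher and 3 lower members under every alternative run, except that leaving out single libraries gave 6 to 7 higher with vehicle. For uridine against vehicle, 5 members were lower in a fit of the 6 libraries only, 0 when the same call was also required against young cells, and 1 was higher and 2 were lower with the young-like fraction subtracted. The shares of all genes called in these settings are not given here. Leaving out single libraries gave 2 to 4 lower and 0 higher. In these 3 comparisons, deviations from the group means correlated at -0.0187 to 0.0207 between libraries of the same replicate number. Such low correlations cannot show that samples were unpaired, because counting noise can hide a pairing. With the replicate block the counts stayed at 3 lower and 0 higher with uridine, 3 and 6 with age (higher and lower) and 6 and 3 with vehicle. P2ry12 with age did not pass the filter in the fit of 6 libraries and has no value there.

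Signs turned in values that were not called in the edgeR fit of 12 libraries. Leaving out single libraries, P2ry12 with age ranged over -1.08 to 0.838, P2ry1 with uridine over -0.0898 to 0.0312 and P2ry2 with uridine over -0.0292 to 0.0149 (log2 fold changes). For P2ry12 with age the log2 fold change was -0.17 without young replicate 1, -0.17 without young replicate 3 and -1.08 without aged replicate 3. With uridine and the young-like fraction subtracted, Nt5e was at 0.27, P2ry1 at 0.13 and P2ry2 at 0.32. P2ry2 was at 0.00635 with a filter of 1 CPM in 3 libraries, 0.00734 with upper-quartile factors and 0.00683 with 6 libraries only, and turned without vehicle replicate 2 or 3 or uridine replicate 3, as P2ry1 did without vehicle replicate 2. Adora2b with uridine was called with DESeq2 size factors (adjusted p = 0.0468) and without each uncultured aged library (0.0324 to 0.0476). The causes were not tested. Of 1209 member values under alternatives 1180 kept direction and side of the threshold. Depth limits P2ry12 everywhere, and P2ry6, P2ry13 and Adora2b in uncultured aged cells.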
